A study of Mus musculus with 6 samples.

Results

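The genes described here encode the machinery of mitosis: the cyclins and kinases that start it, the spindle and its motors, the kinetochore, the spindle checkpoint, condensin and the factors that hold and release sister chromatids. A list of 55 such genes, chosen by function, was looked up on the arrays by gene symbol, and 50 of them had a probe set annotated to that gene alone, of 12393 genes measured. Each gene was read from its probe set with the highest mean intensity over the 6 arrays. Ccnb1, Cdca8, Espl1, Kif15 and Kif20b had no such probe set and are not described further. All 50 measured genes stayed in the fit, since no filter on low values was applied.

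The samples were 3 vector controls and 3 samples with inducible expression of the microRNA miR-34a. Both groups derive from the metastatic, high-Zeb1 line 344SQ, a mouse lung cancer line that the labels call a KP line, grown per the labels in RPMI 1640 with 10% serum. The design text names primary tumours of injected mice as the source of the RNA, the titles of the miR-34a samples also say tumours, and other fields name only the cell line, so the material is not settled by the labels. The labels do not say which agent induced miR-34a or for how long, nor the strain, sex and age of host mice or whether any were pooled.

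Messenger RNAs of mitotic proteins are made periodically and peak in the G2 phase and mitosis. Their promoters are held silent in resting cells by the DREAM complex and switched on in cycling cells by the MuvB core with B-MYB (Mybl2) and FOXM1. Many carry a short element called the cell cycle genes homology region (CHR), often near CCAAT boxes that bind NF-Y. miR-34a is a p53-induced microRNA that is known to arrest the cell cycle when overexpressed. Its mature sequence, shown because it is the agent that separates the groups, is printed from RefSeq (GRCm38.p6, chr4:150068473-150068494, plus strand) with the seed, bases 2 to 8, in capitals.
mmu-miR-34a-5p: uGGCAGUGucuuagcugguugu

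To show the sequence features that the members share, promoters were taken from RefSeq (GRCm38.p6), each window running from 250 bases before to 50 bases after the annotated start. Of the 55 listed genes 47 had a window, 49 windows in all. The CHR letters TTTGAA, on either strand, were in 34 of the 49 windows (69.4%), against 12.9% of 12566 windows of the genes tested and 17.9% of all 32851 windows. The letters CCAAT, on either strand, were in 71.4% of the members' windows, against 37.1% and 37.4%. Both stood in 57.1% of the members' windows, against 5.0% of the windows of genes tested. The E2F letters TTTGGCGC, on either strand, were in 3 of the members' windows (6.1%) and in 0.8% of those of genes tested. TTTGAA and TTTGGCGC begin with the same letters, but no match of one word is also a match of another. Of the 44 TTTGAA matches in the members' windows, 34 began no more than 100 bases before the start or after it. The median position of all 44 was -17 from the start.

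The 150 bases before the start are shown for 7 members, 5′ to 3′ on the gene's strand, with TTTGAA and CCAAT in capitals (TTCAAA and ATTGG where the match is on the other strand). Cdk1, Ube2c, Kif11 and Top2a are members whose transcripts fell in the comparison described below. Cdc20 and Kif22 are members that did not pass its test on the probe set read, though another probe set of each passed as lower. Mad2l1 had the largest fall of the members and neither word in its window. The regions lie at chr10:69352913-69353062 (minus strand) for Cdk1, chr2:164769779-164769928 (plus) for Ube2c, chr19:37376232-37376381 (plus) for Kif11 and chr11:99024190-99024339 (minus) for Top2a. They lie at chr4:118437344-118437493 (minus) for Cdc20, chr7:127042421-127042570 (minus) for Kif22 and chr6:66535071-66535220 (plus) for Mad2l1.
Cdk1: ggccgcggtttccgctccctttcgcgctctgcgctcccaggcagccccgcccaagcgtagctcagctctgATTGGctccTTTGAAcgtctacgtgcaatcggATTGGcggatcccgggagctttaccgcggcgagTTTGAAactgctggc
Ube2c: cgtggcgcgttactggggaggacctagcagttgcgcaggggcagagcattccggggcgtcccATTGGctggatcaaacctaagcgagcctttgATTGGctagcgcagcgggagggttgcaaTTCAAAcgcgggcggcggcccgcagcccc
Kif11: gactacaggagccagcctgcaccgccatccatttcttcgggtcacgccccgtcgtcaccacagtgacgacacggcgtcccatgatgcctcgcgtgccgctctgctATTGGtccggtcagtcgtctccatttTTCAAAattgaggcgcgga
Top2a: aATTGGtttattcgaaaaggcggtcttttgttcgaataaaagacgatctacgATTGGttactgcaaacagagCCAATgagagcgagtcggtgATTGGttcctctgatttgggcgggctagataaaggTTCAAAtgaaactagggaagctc
Cdc20: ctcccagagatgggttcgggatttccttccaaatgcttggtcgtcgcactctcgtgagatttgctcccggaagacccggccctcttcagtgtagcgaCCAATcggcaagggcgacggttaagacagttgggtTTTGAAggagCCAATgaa
Kif22: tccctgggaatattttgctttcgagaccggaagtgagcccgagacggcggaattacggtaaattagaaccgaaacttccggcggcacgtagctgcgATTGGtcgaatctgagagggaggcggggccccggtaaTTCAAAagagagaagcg
Mad2l1: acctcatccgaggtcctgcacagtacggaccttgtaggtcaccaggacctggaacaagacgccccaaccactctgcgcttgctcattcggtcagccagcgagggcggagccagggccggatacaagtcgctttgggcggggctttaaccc

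Values are deposited array intensities, and changes are differences of log2(intensity + 16), miR-34a minus vector, which understate the change of dim probe sets. Array medians ran from 466.7 to 484.18. Vector 1 stood apart from the other arrays, at -43.79 on the first principal component (60.9% of the variance) against -8.75 and -5.37 for the other vector arrays and 16.3 to 21.83 for the miR-34a arrays. As a check of RNA quality, the Actb control probe sets differed, 3′ minus 5′ in log2, by 0.43 ± 0.15 in vector arrays and by 0.57 ± 0.026 in miR-34a arrays (SD, n = 3; p = 0.4 in a two-sided exact permutation test). Those of Gapdh differed by -0.007 ± 0.066 and 0.11 ± 0.014 (SD, n = 3; p = 0.1 in the same exact permutation test, which can go no lower with 3 against 3). Nothing in the labels ties replicates to different animals or cultures; p-values thus measure only the spread among the 6 samples, and it may be technical.

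The comparison asks which transcripts differ where miR-34a is expressed. Of the 50 mitosis genes, 38 fell in the miR-34a samples and 0 rose (limma, adjusted p under 0.05 over all 12393 genes tested), and 48 had a change below 0. Over all genes tested, 5.30% were called lower and 6.50% higher. The called falls ran from 1.31-fold (Cdc25c) to 2.73-fold (Mad2l1), and 7 were at least 2-fold, a size and call that 0.613% of all genes had: Mad2l1, Cenpf, Mki67, Ttk, Plk4, Ube2c and Bub1. The members' median change was -0.65, against 0.02 for all genes. The 3 miR-34a values lay below all 3 vector values in 46 members, as they did in 14.1% of all genes. In bulk RNA, fewer dividing cells and less of each message per cell cannot be told apart. The 5 dimmest members were Cdc25c, Mybl2, Cenph, Ndc80 and Ncapg. Their vector means were 303.9, 326.4, 339.7, 346.9 and 414.7, and their miR-34a means 228.5, 209.0, 245.4, 234.0 and 209.4. Without detection calls the values do not show how far these 5 stood above background. With the dimmest genes dropped, 34 of the 45 members left were lower.

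Scaling moved the balance of calls over all genes and left that of the members. As deposited, 657 genes were lower and 805 higher; with each array centred on its median 997 were lower and 454 higher, and after quantile normalization 808 and 609. The members called lower numbered 40 and 38 under these scalings, with 0 called higher. Single miR-34a arrays did matter: 18 members were called lower when miR-34a 3 was left out, against 20 for miR-34a 1 and 25 for miR-34a 2. Calls over all genes went from 1462 to 226, 222 and 663 in these fits. Without vector 1 there were again 38. Of the 38 called members, 17 kept the call without each array in turn, and no member's change turned sign when 1 array was left out.

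**Figure D1:**
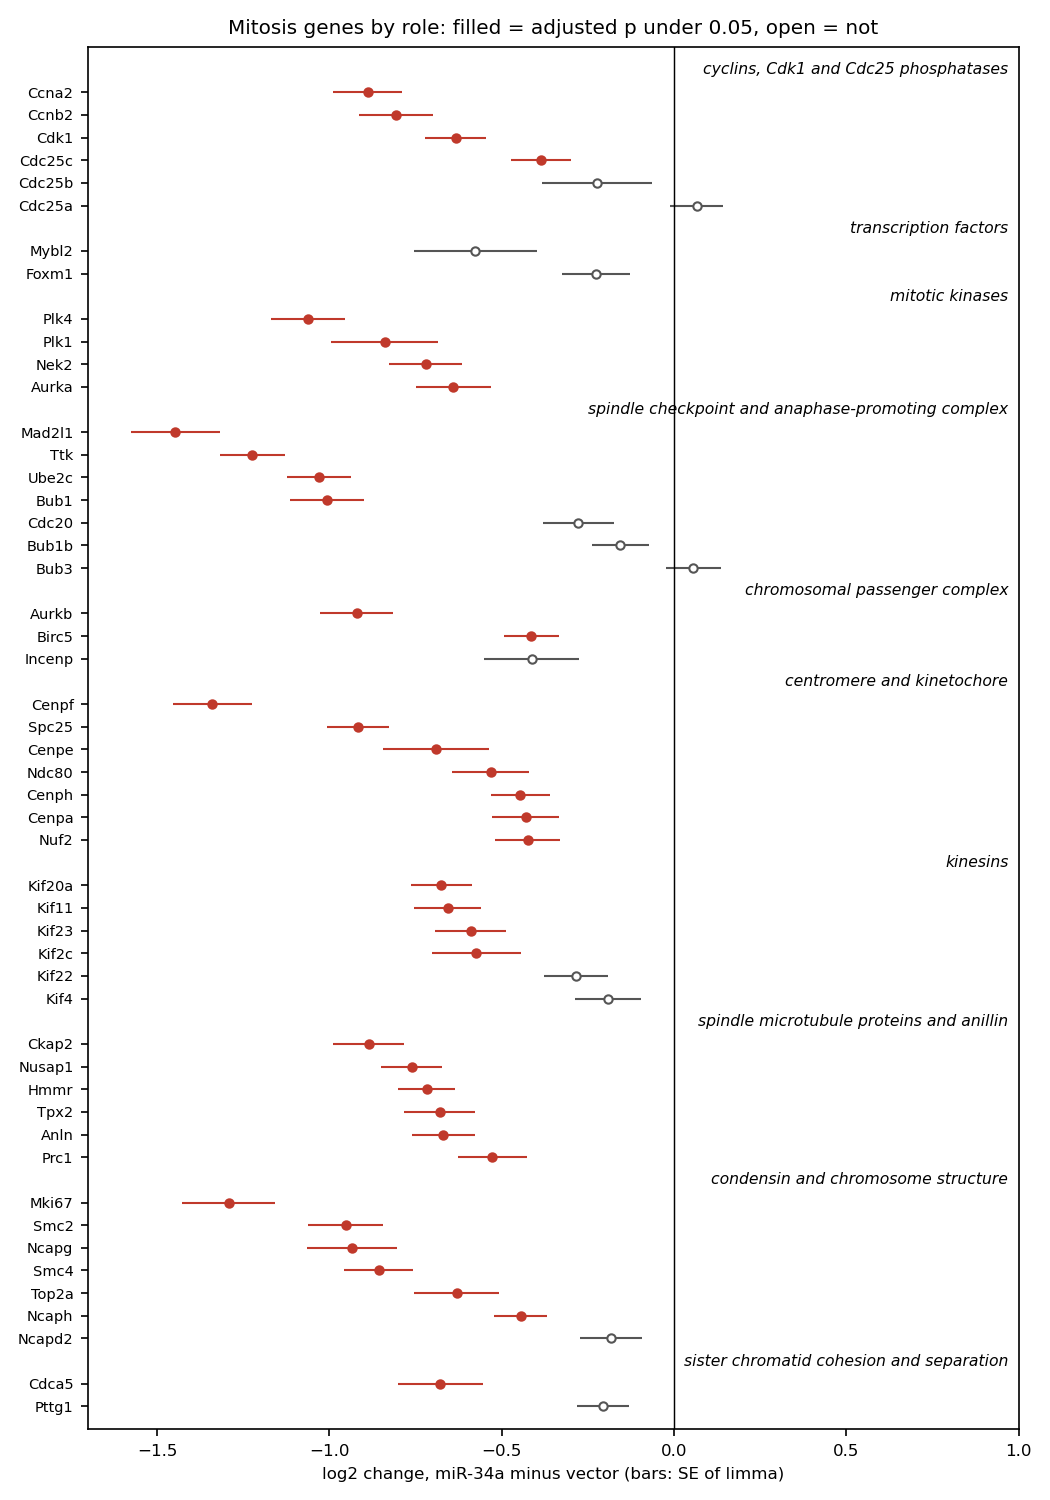
The log2 change (miR-34a minus vector, x axis) of each of the 50 measured mitosis genes, grouped by role, with the SE of limma as bars; filled points passed an adjusted p of 0.05. Of the points, 48 lie left of 0 and 38 are filled, and the 2 to the right of 0 are Cdc25a and Bub3.

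The members were lower on each of the 3 miR-34a arrays. The members' median difference from the vector mean was 0.019, 0.014 and -0.022 on the vector arrays and -0.601, -0.589 and -0.751 on the miR-34a arrays. miR-34a 3 was the lowest of the 6 arrays for 35 members and miR-34a 2 for 11. The summed intensity of the 50 members was 107357, 107370 and 103056 in vector and 72237, 70341 and 66922 in miR-34a. In this sum vector 1 was not apart from the other vector arrays.

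**Figure D2:**
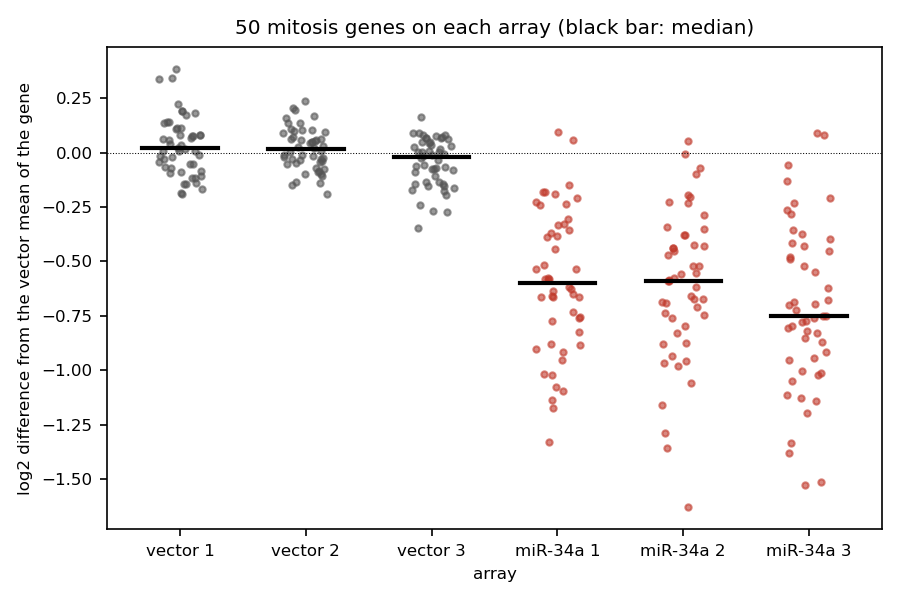
Each point is one of the 50 mitosis genes on one array (x axis), as its log2 difference from its own vector mean (y axis); black bars are medians. The 3 miR-34a medians lie between -0.751 and -0.589 and the 3 vector medians between -0.022 and 0.019.

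The kinase Cdk1, bound to cyclin A2 (Ccna2) or a B-type cyclin such as Ccnb2, drives entry into mitosis, and the Cdc25 phosphatases activate it. The cyclins and Cdk1 fell, and of the phosphatases only Cdc25c passed the test. Ccna2 measured 5152, 4842 and 4342 in the vector arrays and 2806, 2443 and 2467 in the miR-34a arrays. It changed by -0.89 ± 0.1 (SE; limma adjusted p = 0.00605), and its second probe set by -0.83. Ccnb2 measured 2737, 2439 and 2605 in vector and 1663, 1306 and 1475 in miR-34a. The groups lay well apart, with a change of -0.81 ± 0.108 (SE; limma adjusted p = 0.00845). Cdk1 changed by -0.63 ± 0.0896 (SE; limma adjusted p = 0.00953).

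Cdc25a, best known for its action on Cdk2 at the start of S phase, measured 1197, 1097 and 1104 in vector and 1178, 1174 and 1204 in miR-34a. The groups overlapped, and the change of 0.07 ± 0.076 did not pass (limma adjusted p = 0.629); it was -0.03 with median centring and -0.0023 after quantile normalization. Cdc25b, which acts at mitotic entry, was at -0.22 ± 0.16 and did not pass (limma adjusted p = 0.417). It moved with vector 1: that array measured 825 against 582 and 564 for the other vector arrays, and without it the change was -0.05. Cdc25c, another phosphatase of mitotic entry, fell by 0.39 on the log2 scale (limma adjusted p = 0.0335), a call that was kept in 1 of the 6 fits without 1 array.

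Both transcription factors of the late cell cycle program had values below those of the vector arrays, and neither passed the test. Foxm1 measured 575, 468 and 479 in vector and 444, 427 and 418 in miR-34a. Its change was -0.23 ± 0.0992 (SE; limma adjusted p = 0.191), and its other 3 probe sets were at -0.26, -0.22 and, at a mean intensity of 2.1, -0.12. Mybl2 measured 421, 310.4 and 248 in vector and 195, 209 and 223 in miR-34a. The vector values were spread widely, and the change of -0.58 ± 0.178 did not pass (limma adjusted p = 0.0824). Without vector 1 it was -0.38, and its second probe set was at -0.06.

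All 4 members of the mitotic kinase group fell. Plk4, the kinase that starts centriole duplication, measured 1769.8, 1856 and 2154 in vector and 936, 975 and 828 in miR-34a. It changed by -1.06 ± 0.108 (SE; limma adjusted p = 0.00504), and its other 2 probe sets by -1.39 and -1.17. Nek2, a kinase of centrosome separation, measured 787, 679.7 and 610.2 in vector and 428, 405 and 402 in miR-34a. Its change was -0.72 ± 0.107 (SE; limma adjusted p = 0.0108). Plk1, a kinase needed at most steps of mitosis, changed by -0.84 ± 0.155, or -0.67 without vector 1. Aurka, the kinase of spindle poles, changed by -0.64 ± 0.108. The calls of Plk1 and Aurka were each kept in 3 of the 6 fits without 1 array.

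The spindle checkpoint delays anaphase until every kinetochore is attached, by holding Cdc20, the activator of the anaphase-promoting complex, in a complex with Mad2, BubR1 and Bub3. Of its members, Mad2l1, Ttk and Bub1 were among the largest falls of the 50 genes, and Bub1b, Bub3 and Cdc20 did not pass on the probe sets read. Mad2l1, which encodes Mad2, measured 3699, 2881 and 2976 in vector and 1249.7, 1013 and 1205 in miR-34a. The change was -1.45 ± 0.13 (SE; limma adjusted p = 0.00359), the largest of the members. Ttk, the kinase Mps1 that starts checkpoint signalling, measured 673, 679 and 586 in vector and 277, 279 and 246 in miR-34a. The groups were far apart, with a change of -1.22 ± 0.0954 (SE; limma adjusted p = 0.00269). Bub1, a kinetochore kinase, measured 1772, 1861 and 1766 in vector and 833, 1028 and 814 in miR-34a, a change of -1.01 ± 0.107; another probe set of Bub1 was at -0.31 and did not pass.

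Bub3 measured 4745, 5014 and 5233 in vector and 5339, 4962 and 5278 in miR-34a. The groups overlapped, and the change of 0.06 ± 0.0797 did not pass (limma adjusted p = 0.702); with median centring it was -0.04. Bub1b, which encodes BubR1, measured 1324, 1194 and 1247 in vector and 1063, 1169 and 1143 in miR-34a. Its change was -0.16 ± 0.0824 (SE; limma adjusted p = 0.27). Cdc20 measured 5108, 4892 and 4248 in vector and 4095, 4043 and 3592 in miR-34a, a change of -0.28 ± 0.102 that did not pass (limma adjusted p = 0.128). A second Cdc20 probe set was at -0.47 and passed (limma adjusted p = 0.0383 over 20380 probe sets). Ube2c, the ubiquitin-conjugating enzyme that works with the anaphase-promoting complex, changed by -1.03 ± 0.0931 (SE; limma adjusted p = 0.00359), from 5392, 4434 and 4905 to 2414, 2339.9 and 2417.

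**Figure D3:**
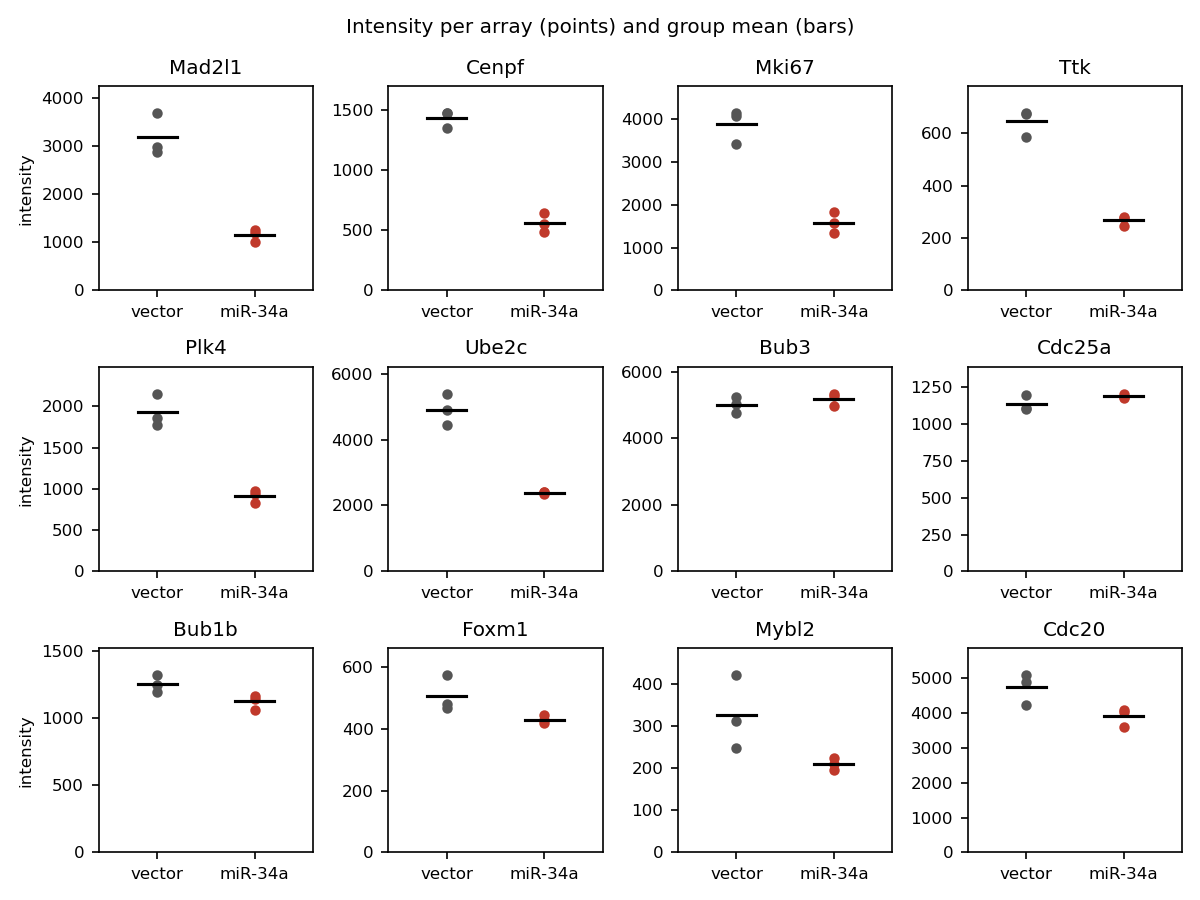
Intensity (y axis, linear from 0) of 12 mitosis genes on each array, as points, with the group means as bars. In Mad2l1, Cenpf, Mki67, Ttk, Plk4 and Ube2c the group means differ by more than 2-fold. In Bub3 and Cdc25a the points of the groups overlap. In Bub1b, Foxm1, Mybl2 and Cdc20 the nearest points of the groups are close without overlap.

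The chromosomal passenger complex joins the kinase Aurora B (Aurkb) to the scaffold Incenp, survivin (Birc5) and borealin, and corrects wrong attachments at the centromere. Aurkb measured 1032, 819.6 and 970.2 in vector and 500.3, 503 and 459 in miR-34a. It changed by -0.92 ± 0.106 (SE; limma adjusted p = 0.00611), and its second probe set by -0.56. Birc5 measured 3668, 3506 and 3335 in vector and 2734, 2518 and 2619 in miR-34a. That was a smaller fall, -0.41 ± 0.0796 (SE; limma adjusted p = 0.0216), and its call was kept in 2 of the 6 fits without 1 array. Incenp was at -0.41 ± 0.138 and did not pass (limma adjusted p = 0.0998); its vector values ran from 2004 to 2863.

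Centromere and kinetochore genes fell in 7 of 7 cases. Cenpf, a large protein of the outer kinetochore, measured 1348, 1474 and 1474 in vector and 642, 549.6 and 486 in miR-34a. It changed by -1.34 ± 0.114 (SE; limma adjusted p = 0.00299), whereas a second probe set was at -0.04 and did not pass. The Ndc80 complex, which grips microtubule ends, had 3 members measured. Spc25 measured 1676, 1831 and 1758 in vector and 983, 947 and 839 in miR-34a. It changed by -0.92 ± 0.0903 (SE; limma adjusted p = 0.00468), with a second probe set at 0.15 that did not pass. Ndc80 changed by -0.53 ± 0.112 and Nuf2 by -0.43 ± 0.0932. Cenpe, a kinesin of the kinetochore, changed by -0.69 ± 0.154. Cenpa, the histone H3 variant that marks centromeres, changed by -0.43 ± 0.0976, and Cenph, of the inner kinetochore, by -0.45 ± 0.0858. The calls of Ndc80, Nuf2 and Cenpa were each kept in 1 of the 6 fits without 1 array, and those of Cenpe and Cenph in 2.

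Kinesins are motors that move along microtubules or shorten them. Of 6 measured, 4 fell and 2 did not pass. Kif20a, a motor of the central spindle and cytokinesis, measured 660.3, 637 and 636 in vector and 415, 424 and 358 in miR-34a. It changed by -0.68 ± 0.0894 (SE; limma adjusted p = 0.00833). Kif11, the motor that pushes spindle poles apart, measured 689, 762 and 787 in vector and 491, 489.5 and 422 in miR-34a. Its change of -0.66 ± 0.0967 (SE; limma adjusted p = 0.0108) was matched by its other probe sets, at -0.66 and -0.74. Kif23, of the central spindle, changed by -0.59 ± 0.103; its other probe sets were at -1.08 and 0.01. Kif2c, which shortens microtubules at centromeres, changed by -0.57 ± 0.129, a call kept in 1 of the 6 fits without 1 array; its other probe sets were at -0.56, -0.35 and -0.04. The chromosome-bound kinesins Kif22 and Kif4 were at -0.28 ± 0.0924 and -0.19 ± 0.0951 and did not pass (limma adjusted p = 0.0945 and 0.241). The other 2 Kif22 probe sets were at -0.54 and -0.57 and passed.

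The spindle microtubule proteins and anillin fell in 6 of 6 cases. Hmmr, a microtubule-binding protein of spindle poles, measured 1096, 1054 and 1091 in vector and 684, 671 and 601 in miR-34a. Its 4 probe sets ran from -0.87 to -0.41, and the one read here changed by -0.72 ± 0.0823 (SE; limma adjusted p = 0.00611). Nusap1, which bundles spindle microtubules, measured 1797, 1817 and 1954 in vector and 1094, 1169.6 and 1007 in miR-34a. It changed by -0.76 ± 0.088 (SE; limma adjusted p = 0.00623). A second Nusap1 probe set, at a mean intensity of 74, was at -0.27 and did not pass. Ckap2, another microtubule-associated protein, changed by -0.89 ± 0.103, and Tpx2, which activates Aurora A on the spindle, by -0.68 ± 0.103. A second Tpx2 probe set was at -0.36 and did not pass (limma adjusted p = 0.0518 over 20380 probe sets). Anln, the scaffold of the cytokinetic ring, changed by -0.67 ± 0.0902. Prc1, which crosslinks the central spindle, changed by -0.53 ± 0.1, a call kept in 2 of the 6 fits without 1 array; its second probe set was at -0.18 and did not pass.

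Condensin compacts chromosomes for mitosis, topoisomerase II alpha (Top2a) untangles them and Ki-67 (Mki67) coats their surface. Mki67 measured 4067, 4154 and 3411 in vector and 1821, 1574 and 1344 in miR-34a. It changed by -1.29 ± 0.135 (SE; limma adjusted p = 0.00553). Smc2, an ATPase subunit of both condensins, measured 2791, 3310.3 and 3147 in vector and 1623, 1722 and 1412 in miR-34a. Its change was -0.95 ± 0.108 (SE; limma adjusted p = 0.00607). The partner ATPase Smc4 changed by -0.86 ± 0.101, with other probe sets at -1.13 and -0.76. Of the subunits particular to condensin I, Ncapg changed by -0.94 ± 0.131 and Ncaph by -0.45 ± 0.0765, and Ncapd2 was at -0.18 ± 0.0897 and did not pass (limma adjusted p = 0.234). Top2a changed by -0.63 ± 0.124, a call kept in 2 of the 6 fits without 1 array. Its second probe set, at a mean intensity of 131.6, was at -0.08 and did not pass.

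Sororin (Cdca5) protects cohesion between sister chromatids, and securin (Pttg1) holds separase inactive until anaphase. Cdca5 measured 2412, 2406 and 1815 in vector and 1379, 1368 and 1343 in miR-34a. It changed by -0.68 ± 0.123 (SE; limma adjusted p = 0.0189). The Cdca5 call was kept in 3 of the 6 fits without 1 array. A second Cdca5 probe set was at -0.26 and did not pass. Pttg1 measured 5741, 5949 and 5475 in vector and 5045, 4955 and 4871 in miR-34a. The groups did not overlap, but the change of -0.21 ± 0.0749 did not pass (limma adjusted p = 0.125), and its other probe sets were at -0.33 and 0.08.

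Other probe sets gave a second reading of 26 of the members. Of these 42 probe sets 37 were below 0 and 18 passed as lower, with 0 higher (limma, adjusted over 20380 probe sets), at a median change of -0.34. For 4 genes, Bub3, Kif23, Pttg1 and Spc25, probe sets differed in sign. Read from the mean of all probe sets of each gene, 39 of the 50 members were lower.

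TTTGAA and CCAAT stood both in members that fell and in members that did not pass. TTTGAA was in 69.7% of the 33 windows of members that fell and in 63.6% of the 11 windows of measured members that did not pass. For CCAAT the shares were 69.7% and 81.8%. TTTGGCGC was in 0 of the 33 windows and in 2 of the 11 (18.2%). The windows belong to 32 of the 38 members that fell and to 10 of the 12 that did not pass. Overlapping windows of Prc1, which fell, and of Bub3, which did not pass, hold the same sites. By gene, TTTGAA was in 22 of 32 and in 6 of 10, and CCAAT in 22 of 32 and in 8 of 10. Among the printed windows, Cdc20 and Kif22 hold both words as Cdk1 and Ube2c do, and Mad2l1 holds neither. Cdc20 and Kif22 count as not passing only by the probe set read for each. Other probe sets passed as lower, at -0.47 for Cdc20 and at -0.54 and -0.57 for Kif22. A further Cdc20 probe set, at -0.30, did not pass.

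Other genes of mitosis were read from lists set by function. Over 5 such lists 28 of 94 measured genes fell and 4 rose, against 5.30% and 6.50% of all genes, at a median change of -0.20. The 28 became 9 when miR-34a 3 was left out, 10 for miR-34a 1 and 16 for vector 3. Of other centromere and kinetochore genes 9 of 21 fell and 0 rose (median -0.39), among them the checkpoint gene Zwilch at -0.82 ± 0.0761, the microtubule coupler Ska1 at -0.83 ± 0.114 and the shugoshin Sgo1, a protector of cohesion, at -0.50 ± 0.0718 (SE). Of other spindle, kinesin and cytokinesis genes 11 of 29 fell and 0 rose (median -0.24), led by the spindle pole gene Aspm at -0.97, Depdc1a at -1.05 and the abscission gene Cep55 at -0.75. Other regulators of mitotic entry and exit had 3 of 20 lower, the kinases Pbk at -0.64 and Melk at -0.53 and the ubiquitin-conjugating enzyme Ube2s at -0.43, and 1 higher, the kinase Nek9 at 0.68 (named after its value was seen; limma adjusted p = 0.0512 with median centring).

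Cohesin and the other condensin subunits fell in 4 of 11 cases, with 0 higher (median -0.29). They included the condensin II subunit Ncapg2 at -1.25 ± 0.118 and the cohesin ATPases Smc1a at -0.61 ± 0.0887 and Smc3 at -0.61 ± 0.0955 (SE). Subunits of the anaphase-promoting complex, which is present through the cell cycle, had a median of 0.015, which was -0.08 with median centring. Of 13 measured, 3 rose, Anapc7 at 0.48 ± 0.0736, Anapc2 at 0.43 ± 0.0877 and Anapc5 at 0.35 ± 0.0775 (SE), and 1 fell, Cdc27 at -0.49. Among all genes 6.50% rose and 5.30% fell. With median centring Anapc2 and Anapc5 did not pass (limma adjusted p = 0.0514 and 0.083), nor did Cdc27 without vector 1 (0.0521). When miR-34a 1 or miR-34a 3 was left out, and with the replicate block, 0 subunits passed in either direction, Anapc7 included. Genes of DNA replication, which act earlier in the cycle, fell in 22 of 44 cases with 0 higher, at a median of -0.36. The 22 became 5 when miR-34a 1 was left out, 6 for miR-34a 3 and 10 for miR-34a 2. The 3 with the smallest p were the ribonucleotide reductase subunit Rrm2 at -1.17, the polymerase subunit Pola1 at -1.06 and the primase Prim1 at -0.74. TTTGAA stood in 16.3% of the 49 promoter windows of replication genes and in 33.8% of the 130 windows of the 5 other mitosis lists.

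**Figure D4:**
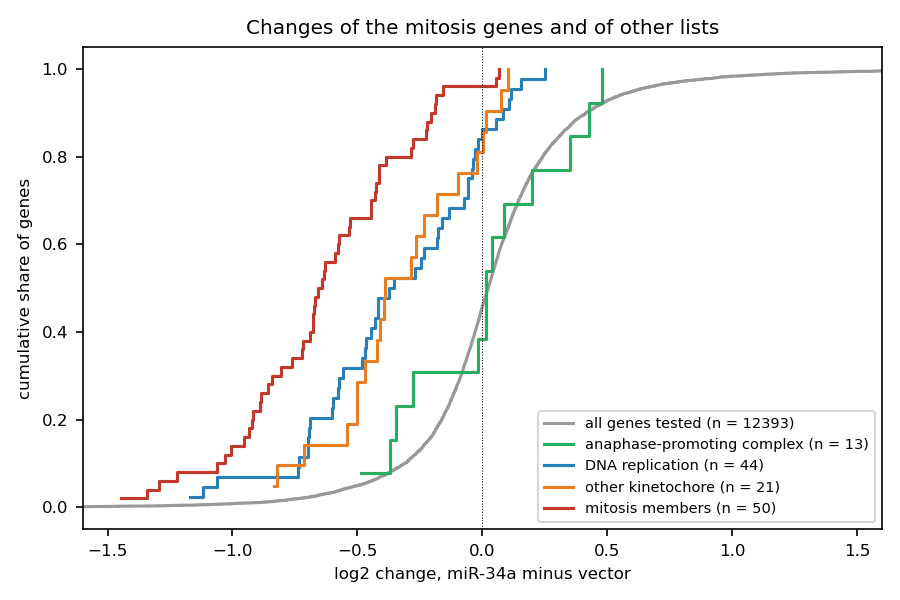
Cumulative share of genes (y axis) by log2 change, miR-34a minus vector (x axis), for the 50 mitosis genes, 21 other kinetochore genes, 44 DNA replication genes, 13 subunits of the anaphase-promoting complex and all 12393 genes tested. The curve of the mitosis genes, with a median of -0.65, lies left of the others, whose medians are -0.39, -0.36, 0.015 and 0.02 in that order.

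Markers of the labelled cell type and of host cells were read on the same arrays. The epithelial and tumour line genes Krt8, Krt18, Vim and Cdh1 had vector means of 20803, 23235, 19906 and 12739 and miR-34a means of 22071, 24075, 21188 and 13429, and Zeb1 of 1568 and 1592. The lung lineage genes Nkx2-1 and Sftpc had vector means of 298 and 227; without detection calls these are not told apart from background. Of these 9 genes 0 passed the test, and their summed intensity ran from 91375 to 99992 in vector and from 94036 to 99298 in miR-34a. The 3 with the smallest p were Sftpc at 0.26, Nkx2-1 at -0.19 and Krt19 at -0.23. Epcam, an epithelial surface protein, measured 304.8, 977.0 and 1463.4 in vector and 1001.3, 1142.2 and 950.7 in miR-34a. Vector 1 was the lowest of the 6, and the change of 0.42 ± 0.504 (SE; limma adjusted p = 0.638) was -0.21 without that array.

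Genes used as markers of host cells were read beside the mitosis genes. The labels do not settle whether host tissue was present, and which cells made these transcripts was not tested. The counts of these short lists stand beside 5.30% of all genes called lower and 6.50% called higher. Of 14 fibroblast markers 3 rose, the collagens Col6a1 at 0.70 and Col6a2 at 0.78 and the surface glycoprotein Thy1 at 1.73, and their summed intensity was 27518 to 67964 in vector and 65862 to 84544 in miR-34a. Of 15 macrophage markers the Fc receptor Fcgr1 at 0.98 and the complement gene C1qb at 1.13 rose and the mannose receptor Mrc1 fell by 0.99 on the log2 scale, with sums of 20943 to 31986 and 32068 to 36344. After quantile normalization neither Fcgr1 nor C1qb passed (limma adjusted p = 0.0503 and 0.0517), nor did C1qb with median centring (0.0565). When miR-34a 1 or miR-34a 3 was left out, 0 fibroblast and 0 macrophage markers passed as higher. Calls over all genes in these fits were 222 and 226, in place of 1462. The macrophage count was 0 also when miR-34a 2 or vector 3 was left out. Without vector 1, which gave 2130 calls over all genes, 3 fibroblast and 4 macrophage markers passed as higher. Of 12 endothelial markers 0 passed (Emcn -0.25, Tek 0.23, Kdr 0.19), with sums of 6476 to 10982 and 8898 to 8960. Of 11 T and NK cell markers 0 passed (Cd3d 0.48, Cd8b1 0.42, Cd3g 0.50), with sums of 4241 to 4406 and 4573 to 4811. The lowest marker value was 91.9, of the macrophage gene Adgre1, and the lowest of any probe set was 1.0. Without detection calls the values do not show whether a dim marker was present. Between vector 1 and vector 2 the fibroblast sum differed by 2.47-fold and the macrophage sum by 1.53-fold. The sum of the 50 mitosis genes on these arrays was 107357 and 107370. Without vector 1 the median change of the fibroblast markers was 0.27 in place of 0.69 and that of the macrophage markers 0.20 in place of 0.47. The median change of the mitosis genes was -0.64 in that fit, in place of -0.65, and 38 of them were again lower. The part of host cells in the lower values of the miR-34a arrays was not tested.

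**Figure D5:**
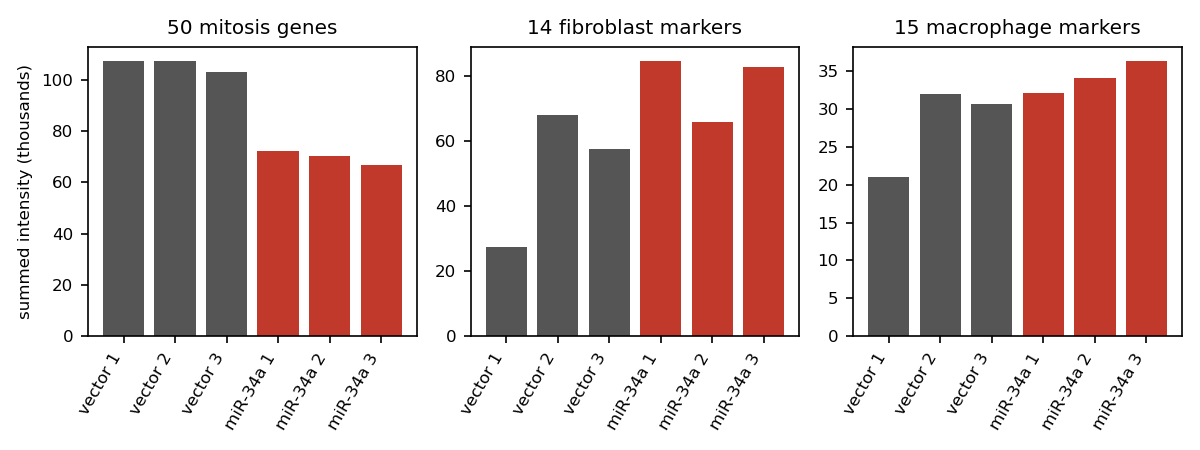
Summed intensity (y axes from 0, scaled as labelled) of the 50 mitosis genes, 14 fibroblast markers and 15 macrophage markers on each array (grey vector, red miR-34a). The mitosis sums fall into a vector range of 103056 to 107370 and a miR-34a range of 66922 to 72237. The fibroblast sum of vector 1, 27518, is the lowest of the 6.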

How the data were processed

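Messenger RNA was measured on 6 Affymetrix mouse arrays with biotin-labelled cRNA, per the labels. The design text names another array model than the platform whose annotation was used for gene names. The values are linear intensities as the authors deposited them; how they were summarised and normalized is not given in the sources used here. Groups and replicate numbers come from the titles, and gene names from the platform annotation, updated by Entrez identifier with the GRCm38.p6 RefSeq table. Of 22690 probe sets, 20393 had 1 symbol, 691 had several and 1606 were not listed. Of the 64 controls 13 had 1 symbol, and without these 20380 probe sets of 12393 genes remained for testing. No detection calls were used, and 3 arrays per group limit the precision.

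The groups were compared on log2(intensity + 16) in R 4.3.3 by limma 3.58.1 (lmFit, then eBayes), without a block. Tests were two-sided, and p-values were adjusted by Benjamini-Hochberg over the 12393 genes, with a threshold of 0.05. The members, the other gene lists and the tests were chosen with earlier results of these data known. All listed genes were accounted for; values in every array were given, in each role, for the 2 genes with the smallest p and for those higher or changed by under 0.1, and of every other list the 3 genes with the smallest p were named. Values in every array of Bub1, Bub1b, Cdc20 and Ube2c, and the genes of the printed promoters and of the plot of 12 genes, were added after their values were seen. The fit was first tested on simulated data. Fits with other scalings, pseudocounts, probe set rules, a replicate block, array weights and 1 array left out were run as alternatives. Python 3.11.15 and matplotlib 3.10.9 drew the figures.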

Additional observations from a re-analysis of the deposited data

How the results depend on the processing

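The 38 members lower, 0 higher, became 34 (of 45 left after the dimmest genes were dropped) to 40 under 2 other scalings, other pseudocounts, means over probe sets, a variance trend and array weights, and 20 at a threshold of 0.01. Leaving out 1 array gave 18 to 38. The members' median change of -0.65 was -0.744 with median centring, -0.527 over the mean of all probe sets and -0.669 to -0.593 without 1 array. Cdc25a turned to -0.03 with median centring and -0.0023 after quantile normalization, and Bub3 to -0.0397 with median centring; the centring lowers every change by the same amount. For the 28 other mitosis genes lower, the count was 10 at a threshold of 0.01 and 9 to 32 without 1 array, with 9 when miR-34a 3 was left out, 10 for miR-34a 1 and 16 for vector 3. Deviations of equally numbered arrays correlated at -0.171, -0.099 and -0.076, and those of the other pairs at -0.05 to 0.143. With 3 arrays a group this cannot show whether the replicate numbers pair the samples. With the replicate block 29 members and 15 other mitosis genes were lower, of 521 calls over all genes in place of 1462 (3242 with array weights, 248 at a threshold of 0.01). The DNA replication count of 22 became 8 in that fit and 5 to 22 without 1 array.

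With 3 arrays a group, unknown normalization and no detection calls, the smallest change called among the members was -0.39 in log2, and 10 of the 38 calls held in at most 2 of the 6 fits without 1 array.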
